A study of Mus musculus with 6 samples.

Results

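The genes described here encode proteins that carry calcium into and out of the cytosol of a muscle cell or regulate that movement. There were 10 of them, Cacna1c, Cacna1g, Cacna1h, Cacnb2, Stim1, Orai1, Itpr1, Itpr2, Ryr2 and Atp2a2, taken by gene symbol from the 23997 genes of the table. They were chosen for what their products do, although earlier results of these data were known at the time. Expression was measured by bulk RNA sequencing of ductus arteriosus (DA) removed from C57BL/6 embryos at E17.5, and each value is an FPKM, the fragments mapped to a gene scaled to its transcript length and to the mapped fragments of the library. The WT group (n = 3, WT 0 to WT 2) came from wild-type littermates that received no treatment, and the KO group (n = 3, KO 0 to KO 2) from untreated Prdm6f/f; SM22-Cre embryos, in which Cre recombinase driven by the SM22 (Tagln) promoter acts on a floxed Prdm6. That promoter is active in smooth muscle cells and, in the embryo, also in heart muscle, so deletion is limited to lineages that use it, and the whole DA still holds other cells. The labels give no tissue pooling and no flox or Cre status for the WT littermates.

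The DA is the fetal artery that joins the pulmonary artery to the aorta, and it closes after birth when its smooth muscle contracts. Contraction begins with calcium: L-type channels (pore subunit CaV1.2, encoded by Cacna1c) and T-type channels (Cacna1g and Cacna1h) admit it when the membrane depolarizes, IP3 receptors and ryanodine receptors release it from the sarcoplasmic reticulum, and STIM and ORAI proteins let it in from outside when that store runs low. SERCA pumps return it to the store, and calmodulin passes the signal to myosin light chain kinase.

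None of the 10 genes differed between KO and WT DA by limma, which fits a linear model to each gene and shares information on variance across genes. All 10 had a mean FPKM of at least 1 and were tested with 12955 genes on log2(FPKM + 0.1), and their adjusted p-values lay between 0.679 and 0.988, against a threshold of 0.05 (limma, Benjamini-Hochberg over all tested genes). Of all genes, 1 of the 12955 genes, or 0.00772%, passed that threshold. At an unadjusted limma p under 0.05 the count was 0 of 10, where 8.28% of all tested genes lay. In log2 fold change, KO minus WT, 5 of the genes were above 0 and 5 below, with a median of 0.10 beside 0.07 for all tested genes. Every one of the 10 intervals (95%) held 0, and 6 of them stayed within a doubling or halving, from -1 to 1 in log2, that of Itpr2 narrowly. Groups that did not overlap were seen for 1 gene, Cacna1h, with the KO libraries higher, an arrangement shown by 8.21% of all tested genes, while 0 of the 10 genes were lower without overlap, against 7.84% of all tested genes. With 3 libraries against 3 an exact permutation test cannot give a two-sided p under 0.1. Nothing in the labels says that each library came from its own embryo, so the p-values measure the spread among these libraries.

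**Figure D1:**
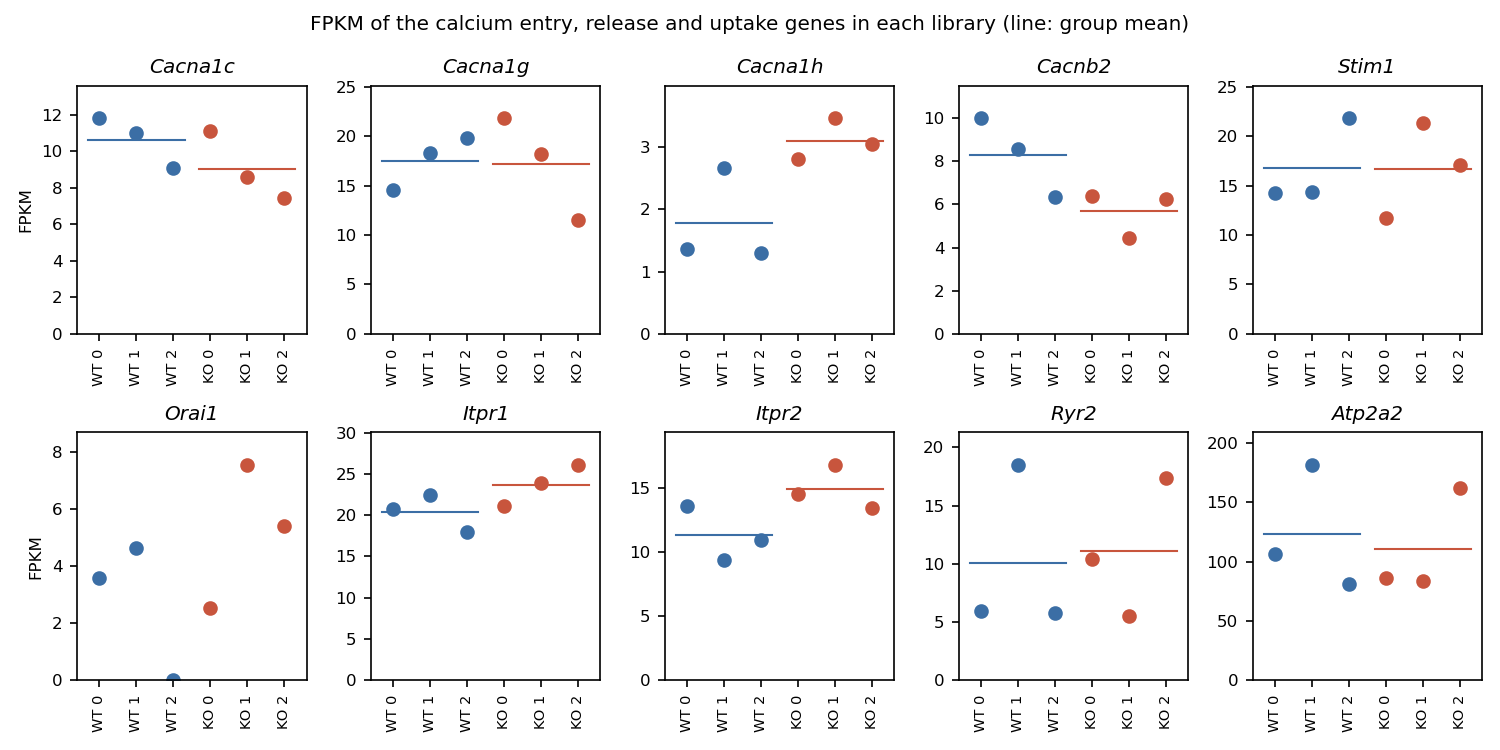
FPKM of each of the 10 genes (vertical axis, from 0) in the 3 WT libraries (blue) and the 3 KO libraries (red); lines are group means, omitted for Orai1, which is listed at 0 in WT 2. The groups overlap in every panel except Cacna1h, and Ryr2 and Atp2a2 are highest in WT 1 and KO 2.

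Several facts about the libraries bear on what follows. Prdm6 itself was measured at 41.7, 48.4 and 19.8 FPKM in WT and at 48.6, 27.1 and 15.4 FPKM in KO, a log2 fold change of -0.32 ± 0.48 (SE, limma adjusted p = 0.833), and a value for the whole gene cannot check a deletion whose position the sources do not give. The gene that passed the threshold was Rn45s, the ribosomal RNA precursor, listed at 0 in every WT library and at 3060.0 to 4520.4 FPKM in KO, so genotype cannot be told apart from any difference in how the groups' libraries were made or counted. In KO 0, Xist stood at 81.0 FPKM and the Y-linked Ddx3y at 26.4 FPKM, whereas each of the other libraries was high in 1 of them alone. Smooth muscle defining genes were present in all libraries, with Acta2 between 396.1 and 2262.1 FPKM, and the FPKM of the 18 smooth muscle genes listed summed to 4724.4 to 8659.4 in WT and to 2065.2 to 4117.4 in KO. Of the 17 that were tested, 16 had a negative log2 fold change, 8 had an unadjusted limma p under 0.05, and 0 passed after adjustment (lowest adjusted p = 0.17). Fewer smooth muscle cells and less RNA per cell cannot be told apart in bulk tissue, and the part of this shift in the values below was not tested.

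Among the 10 genes, transcript levels spanned from a mean over all 6 libraries of 116.7 FPKM for Atp2a2 to 2.44 FPKM for Cacna1h. FPKM is a level per transcript length, so genes may be ranked on it. The order was Atp2a2, Itpr1 (22.1), Cacna1g (17.4), Stim1 (16.7), Itpr2 (13.1), Ryr2 (10.6), Cacna1c (9.83), Cacnb2 (7.0), Orai1 (3.96) and Cacna1h (2.44). The SERCA gene Atp2a2 stood clear of the rest, since its lowest library (81.2) was above the highest library of Itpr1 (26.1). All other neighbours in the order had overlapping ranges, although Cacna1c exceeded Cacnb2 in each of the 6 libraries. Cacna1g, a T-type pore gene, was above the L-type pore gene Cacna1c in mean level.

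Promoter sequence was looked up for the 10 genes in RefSeq (GRCm38.p6), and 6 of them had entries, with 9 promoters in all. The 250 bases before the start are shown for Cacnb2, the gene with the most negative log2 fold change, at its pair of start sites, for Itpr2, the gene with the lowest unadjusted p, and for Ryr2, which varied the most between libraries among genes detected in all of them. Each is written 5′ to 3′ on the strand of the gene. Capitals mark matches on either strand to the GC box, whose letters are GGGCGG, to the well-known promoter element called the CCAAT box, and to the E-box, spelled CANNTG with any base at each N. The Cacnb2 sequences lie at chr2:14604056-14604305 and chr2:14823842-14824091 (plus strand), that of Itpr2 at chr6:146502224-146502473 (minus strand) and that of Ryr2 at chr13:12106946-12107195 (minus strand).
Cacnb2, upstream start: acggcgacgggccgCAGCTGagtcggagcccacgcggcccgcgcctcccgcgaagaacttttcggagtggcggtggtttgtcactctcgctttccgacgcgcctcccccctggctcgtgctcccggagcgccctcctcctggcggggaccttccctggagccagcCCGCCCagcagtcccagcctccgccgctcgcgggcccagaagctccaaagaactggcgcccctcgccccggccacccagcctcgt
Cacnb2, downstream start: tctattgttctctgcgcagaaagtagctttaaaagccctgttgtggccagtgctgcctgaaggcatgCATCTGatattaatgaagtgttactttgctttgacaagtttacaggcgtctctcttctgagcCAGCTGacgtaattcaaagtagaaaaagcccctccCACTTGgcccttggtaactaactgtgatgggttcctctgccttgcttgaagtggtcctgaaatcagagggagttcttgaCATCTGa
Itpr2: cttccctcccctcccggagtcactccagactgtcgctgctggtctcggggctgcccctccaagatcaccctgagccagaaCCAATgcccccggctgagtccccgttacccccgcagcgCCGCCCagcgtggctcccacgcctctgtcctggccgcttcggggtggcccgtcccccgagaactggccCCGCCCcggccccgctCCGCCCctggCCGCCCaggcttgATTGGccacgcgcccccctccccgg
Ryr2: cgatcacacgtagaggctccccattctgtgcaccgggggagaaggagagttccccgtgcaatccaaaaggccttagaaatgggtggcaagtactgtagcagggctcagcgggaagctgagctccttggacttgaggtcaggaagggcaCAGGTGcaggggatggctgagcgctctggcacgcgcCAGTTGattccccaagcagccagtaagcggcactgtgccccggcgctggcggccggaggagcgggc

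The Cacnb2 promoters differed in composition. The upstream one was 73.2% G and C and held 1 GC box and 1 E-box, and the downstream one was 46.0% G and C and held 4 E-boxes and 0 GC boxes. Itpr2 had a GC-rich promoter (74.4%) with 4 GC boxes and 2 CCAAT boxes, whereas that of Ryr2 (63.2%) held 2 E-boxes and none of the other motifs. The median promoter in the table was 52.4% G and C. Among all 32851 promoters, the window held a GC box in 32.7%, a CCAAT box in 33.8% and an E-box in 66.2%. The TATA box, searched as the letters TATAAA, had 0 matches in these 4 windows and was held by 12.4% of all promoters. The binding site of GATA factors, searched as the letters AGATAA, likewise had 0 matches (9.99% of all promoters), as did the CArG box (1.47%) and the MEF2 site (2.92%). In the 4 windows no 2 matches to different motifs overlapped. Because FPKM was given per gene, the values below do not say which start was used.

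Voltage-gated entry was described by 3 pore subunits and 1 auxiliary subunit. Cacna1c (chr6:118587240-119196418, minus strand, mm10), the L-type pore through which most depolarization-driven calcium enters arterial smooth muscle, was at 11.8, 11 and 9.06 FPKM in WT and at 11.1, 8.58 and 7.46 in KO. The lowest library was KO 2 and the highest WT 0, and the groups overlapped through KO 0. Means were 10.6 ± 1.39 in WT and 9.05 ± 1.88 in KO (SD, n = 3 each), with a log2 fold change of -0.24 ± 0.29 (SE, limma adjusted p = 0.801). The interval of that difference ran from -0.91 to 0.43. Dcp1b lies within the Cacna1c locus on the opposite strand, with a mean of 2.76 FPKM, and the strandedness of the counting is not given in the sources used here.

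Cacnb2 (chr2:14603088-14987908, plus strand), a β subunit that carries L-type pores to the membrane, was at 9.99, 8.59 and 6.32 FPKM in WT and at 6.40, 4.45 and 6.25 in KO. It was the gene of the 10 with the most negative log2 fold change, -0.53 ± 0.35 (SE, limma adjusted p = 0.687), from 8.30 ± 1.85 in WT to 5.70 ± 1.09 in KO (SD, n = 3 each), with an interval from -1.35 to 0.29. The overlap rested on WT 2, which was below KO 0 by less than 0.1 FPKM. With the libraries scaled to a common median, or quantile normalized, the groups no longer overlapped, and the adjusted p did not go below 0.628 under any alternative (limma). The share of all tested genes without overlap is not given for these scalings. In the main fit, 7.84% of all tested genes were lower in KO without overlap. Gm13315, transcribed on the same strand inside the locus, had a mean of 3.59 FPKM.

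The T-type pores differed from each other in level and in the sign of the difference. Cacna1h (chr17:25374285-25433783, minus strand), encoding CaV3.2, was low throughout, at 1.36, 2.67 and 1.30 FPKM in WT and 2.81, 3.46 and 3.05 in KO. Every KO library was above every WT library, and the nearest pair was WT 1 and KO 0. Means were 1.78 ± 0.774 in WT and 3.10 ± 0.330 in KO (SD, n = 3 each), and the log2 fold change was 0.84 ± 0.60 (SE, limma adjusted p = 0.701, interval -0.57 to 2.24; exact permutation p = 0.1, two-sided). The sign held in all 15 alternatives that kept the gene, but many of them could not turn it. With every KO library above every WT library, leaving out libraries could not turn the sign. The filters on level, the variance settings and the replicate block leave the estimate unchanged. Quantile normalization gave 0.60 and brought the groups into overlap, and scaling to a common median gave 0.81. Leaving out the trend of variance on level gave the lowest unadjusted p, 0.0498, with no call after adjustment by limma. Transcripts of nerve cells and of the Schwann cells that sheathe them also stood higher in KO: the 12 neuron genes listed summed to 52.2 to 66.9 FPKM in WT and 94.1 to 111.1 in KO, with 8 of 9 tested genes above 0, and the 12 Schwann cell genes to 15.9 to 45.1 in WT and 51.0 to 205.9 in KO, with 11 of 11 above 0. None of these genes passed after adjustment (lowest limma adjusted p = 0.545 and 0.332). Within WT the order of libraries differed from that of Cacna1h. WT 1 had the most Cacna1h and the lowest neuron sum, 52.2 FPKM, and WT 2 the least Cacna1h and the highest Schwann cell sum, 45.1 FPKM. The part of these cell types in the Cacna1h values was not tested.

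Cacna1g (chr11:94408391-94474198, minus strand), encoding CaV3.1, was at 14.5, 18.3 and 19.8 FPKM in WT and at 21.8, 18.2 and 11.5 in KO. Both the highest and the lowest library were KO libraries, KO 0 and KO 2. The log2 fold change was -0.07 ± 0.29 (SE, limma adjusted p = 0.955, interval -0.75 to 0.62), and the SD was 2.73 FPKM in WT and 5.23 in KO (n = 3 each). Its sign turned when KO 2 was left out, to 0.20.

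Within the 7 L- and T-type pore genes, of which 4 had a mean of at least 1 FPKM, Cacna1g took the largest part of the summed FPKM in every library. Its share was 52.0%, 52.3% and 58.1% in WT and 60.2%, 58.1% and 42.0% in KO. The Cacna1c share was 42.3%, 31.3% and 26.6% in WT and 30.7%, 27.3% and 27.2% in KO, with overlap. Cacna1h took 4.89%, 7.64% and 3.82% in WT and 7.75%, 11% and 11.1% in KO. Its share averaged 5.45% ± 1.97 in WT and 9.96% ± 1.92 in KO (SD, n = 3 each) and did not overlap (exact permutation p = 0.1, 0.667 after Benjamini-Hochberg adjustment over the 10 shares compared). Such shares are ratios within a library and do not depend on how the libraries were scaled to each other. Cacnb2 held 23.6%, 27.3% and 32.4% of the summed β subunit FPKM in WT and 17.4%, 18.4% and 24.2% in KO (difference -7.83 percentage points, exact permutation p = 0.2, adjusted p = 0.667). Cacnb3 was the most abundant β subunit gene, with a mean of 17.7 FPKM and a log2 fold change of 0.03 ± 0.30.

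**Figure D2:**
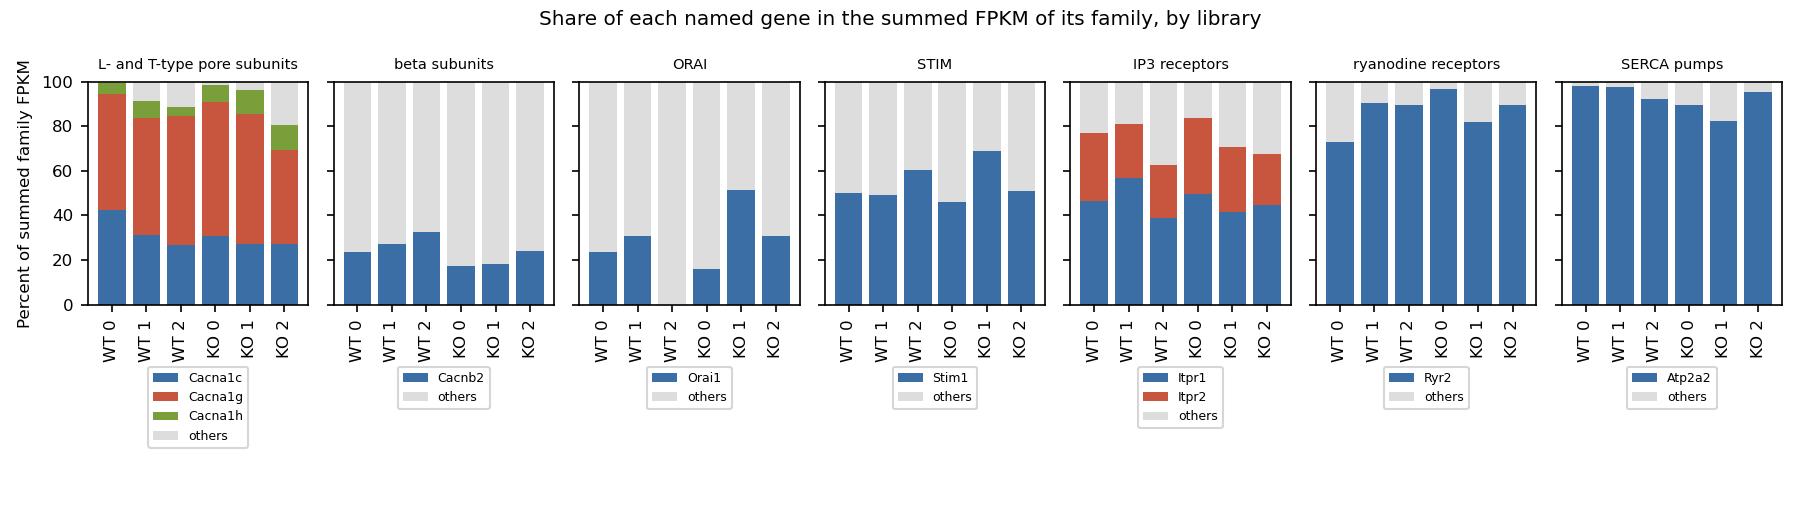
Share of each named gene in the summed FPKM of its family (percent, vertical axis from 0) in each of the 6 libraries; grey is the rest of the family. Cacna1h takes 3.82 to 7.64% of the pore subunit FPKM in WT and 7.75 to 11.1% in KO, and Atp2a2 at least 82.4% of the SERCA pump FPKM in every library.

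Store-operated entry needs a sensor in the reticulum, STIM1, and a pore in the plasma membrane, ORAI1. Stim1 (chr7:102267806-102437319, plus strand) was at 14.2, 14.3 and 21.8 FPKM in WT and at 11.7, 21.3 and 17.1 in KO. High and low libraries occurred in both groups, and the means were 16.8 ± 4.38 and 16.7 ± 4.79 (SD, n = 3 each). The log2 fold change of -0.02 ± 0.31 (SE, limma adjusted p = 0.988) had an interval from -0.73 to 0.69 and changed sign under quantile normalization.

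Orai1 (chr5:123015074-123030456, plus strand) was at 3.60 and 4.64 FPKM in WT 0 and WT 1 and listed at 0 in WT 2, and it was at 2.53, 7.56 and 5.42 FPKM in KO. Listed zeros were found in each library even among abundant genes, for 34 to 61 genes with a mean of at least 20 FPKM. These include Rn45s in the WT libraries. WT 2 had the most such genes, 61, and the most zeros over all genes, 11886 against 8338 to 10313 elsewhere. Whether the 0 of Orai1 in WT 2 was a failed estimate was not tested. The fitted log2 fold change of 2.0 ± 1.45 (SE, limma adjusted p = 0.702) depended on that library: without WT 2 it was 0.20. KO 0 was below both detected WT libraries. As a share of the summed FPKM of the 3 ORAI genes, Orai1 ranged from 16.1% in KO 0 to 51.2% in KO 1 among the libraries in which it was detected. Orai3 had the highest mean of that family, 7.79 FPKM.

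Intracellular release was represented by a pair of IP3 receptors and the cardiac-type ryanodine receptor. Itpr1 (chr6:108213096-108551109, plus strand), the receptor usually held to be the main one in vascular smooth muscle, was at 20.8, 22.4 and 18.0 FPKM in WT and at 21.1, 23.9 and 26.1 in KO. The groups overlapped through WT 1, which lay above KO 0. From 20.4 ± 2.25 to 23.7 ± 2.50 FPKM (SD, n = 3 each), the log2 fold change was 0.22 ± 0.20 (SE, limma adjusted p = 0.744, interval -0.25 to 0.68), the smallest standard error of the 10 genes.

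Itpr2 (chr6:146108299-146502223, minus strand), another IP3-gated release channel, whose GC-rich promoter is printed above, was at 13.6, 9.41 and 10.9 FPKM in WT and at 14.5, 16.8 and 13.4 in KO. WT 0 lay just above KO 2, and the other libraries were apart. Means were 11.3 ± 2.10 in WT and 14.9 ± 1.73 in KO (SD, n = 3 each). Its log2 fold change, 0.41 ± 0.25 (SE, limma adjusted p = 0.679, interval -0.18 to 1.0), had the lowest unadjusted p of the 10 genes, 0.15 by limma. The fold change was positive in all 16 alternatives, of which the filters, the variance settings and the replicate block cannot change it. With 1 library left out it ranged from 0.28 to 0.55. In the sum of the 3 IP3 receptor genes, Itpr1 made up 38.8 to 57.0% and Itpr2 22.8 to 34.0%, with overlapping groups for both.

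**Figure D3:**
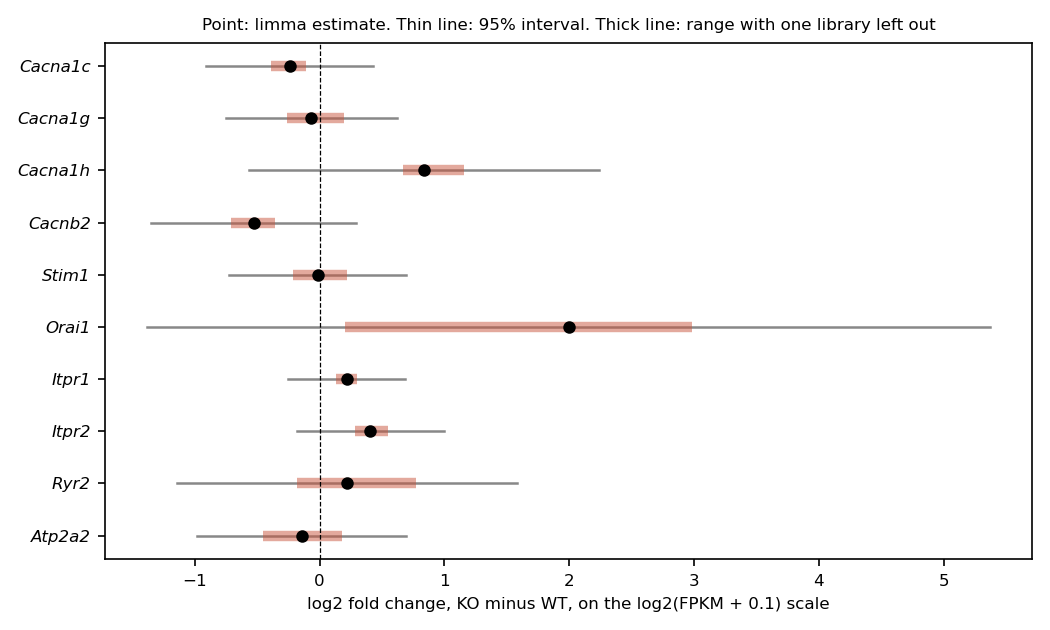
Log2 fold change, KO minus WT, on the log2(FPKM + 0.1) scale (horizontal axis) for the 10 genes; points are limma estimates, thin lines 95% intervals and thick lines the range when any 1 library is left out. All 10 intervals hold 0, that of Orai1 is the widest (-1.38 to 5.37), and the leave-out ranges of Cacna1g, Stim1, Ryr2 and Atp2a2 cross 0.

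Ryr2 and Atp2a2 were each highest in the same 2 libraries, 1 of each genotype. Ryr2 (chr13:11553102-12106945, minus strand), the ryanodine receptor of heart muscle that smooth muscle also expresses, was at 5.92, 18.5 and 5.74 FPKM in WT and at 10.4, 5.50 and 17.4 in KO. WT 1 and KO 2 were high and the other 4 libraries were at 10.4 or below. The SD was 7.34 in WT around a mean of 10.1 and 5.97 in KO around 11.1 (n = 3 each), and the log2 fold change was 0.22 ± 0.59 (SE, limma adjusted p = 0.915, interval -1.14 to 1.58). Leaving out WT 1 gave 0.77 and leaving out KO 2 gave -0.18.

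Atp2a2 (chr5:122453513-122502225, minus strand), encoding the SERCA2 pump, was at 106.3, 181.4 and 81.2 FPKM in WT and at 85.8, 83.4 and 162.1 in KO. Here too WT 1 and KO 2 were the highest, and the next library was WT 0. Means were 123.0 ± 52.1 in WT and 110.4 ± 44.8 in KO (SD, n = 3 each), with a log2 fold change of -0.15 ± 0.36 (SE, limma adjusted p = 0.908, interval -0.98 to 0.69). Without WT 1 it was 0.18, and without KO 2 it was -0.46.

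WT 1 and KO 2 were also the libraries with the most heart muscle transcript. The FPKM of the 20 heart muscle genes listed summed to 174.0, 1878.7 and 725.5 in WT and to 313.8, 220.2 and 2105.3 in KO. The 3 most abundant were Myl4, an atrial light chain (349.4 FPKM in WT 1 and 508.5 in KO 2, 9.61 to 46.7 elsewhere), Tnnc1, troponin C of heart and slow skeletal muscle (193.3 and 206.6, 33.5 to 106.1 elsewhere), and Myh6, the α myosin heavy chain (357.2 and 280.6, 3.77 to 25 elsewhere). Of the 18 genes of that list that were tested, 13 had WT 1 and KO 2 as their highest 2 libraries. Of all 20, 1, Nppb, was listed at 0 in all 6 libraries. Ryr2 and Atp2a2 were the 2 of the 10 calcium genes with that arrangement, which 6.56% of all tested genes showed. Of the heart muscle genes, Myl2, Myl3, Myh7 and Myoz2 were instead highest in WT 2, at 123.6, 58.5, 43.5 and 18.8 FPKM. In WT 2 the heart muscle sum was 725.5 FPKM, while Atp2a2 was at its lowest, 81.2, and Ryr2 was at 5.74. Ryr2 averaged 18.0 FPKM in WT 1 and KO 2 and 6.89 in the other 4 libraries, a ratio of 2.61, and Atp2a2 averaged 171.8 and 89.2, a ratio of 1.93. The same ratio was 0.908 for Cacna1c, 1.09 for Cacnb2 and 1.16 for Itpr1. Among other genes of the reticulum it was 7.52 for Srl (sarcalumenin), 39.9 for Trdn (triadin) and 91.5 for Casq2 (the cardiac calsequestrin), and it was 0.77 for Jph2, the junctophilin of muscle. Of the 16 tested genes on the list of release and its regulators, 4 had WT 1 and KO 2 as their highest 2 libraries, and the others, Calr among them, did not. The ratio was 2.09 for the sodium-calcium exchanger gene Slc8a1. These ratios describe libraries picked for their heart muscle sum and carry no test. The part of heart muscle tissue in the Ryr2 and Atp2a2 values was not tested.

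Without WT 1 and KO 2, an alternative chosen after the data were seen, the log2 fold change of Ryr2 was 0.37 ± 0.56 (limma adjusted p = 0.877) and that of Atp2a2 was -0.14 ± 0.25 (adjusted p = 0.894). Between the remaining libraries, 2 in each group, Cacna1h, Itpr1 and Itpr2 did not overlap and were higher in KO, an outcome that 38% of all tested genes showed in 1 direction or the other with so few libraries. When KO 0, the library with both Xist and Ddx3y, was left out, 5 of the 10 genes did not overlap (Cacna1c and Cacnb2 lower in KO, Cacna1h, Orai1 and Itpr1 higher) where 26.7% of all tested genes did, and their adjusted p-values were 0.805 to 0.812 except for Cacnb2 at 0.797 (limma).

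**Figure D4:**
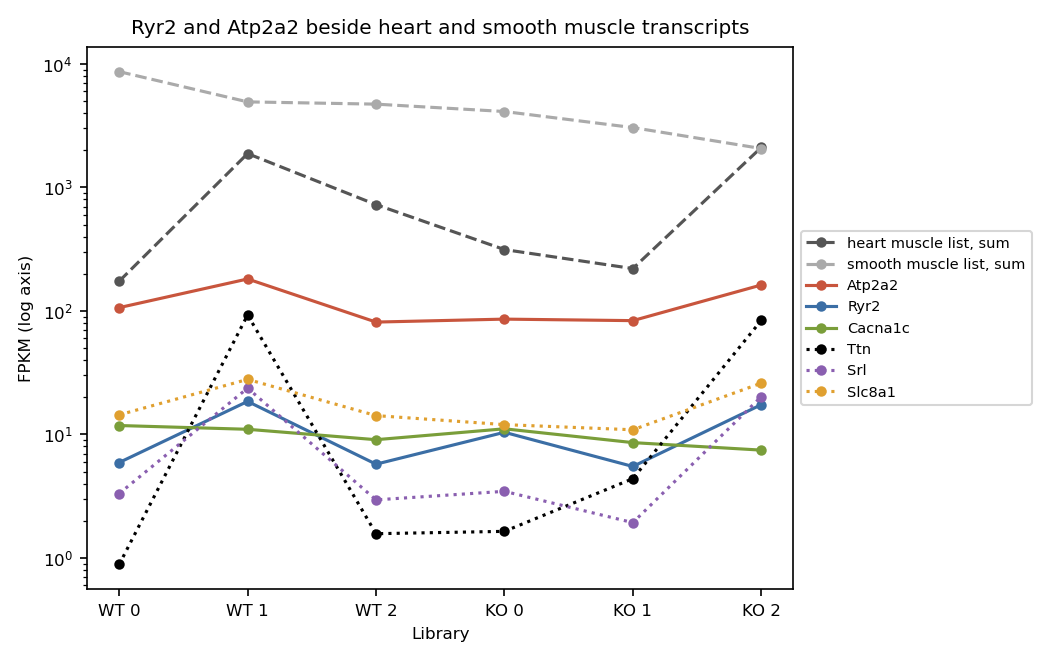
FPKM (log axis) of Atp2a2, Ryr2, Cacna1c, Ttn, Srl and Slc8a1 and the summed FPKM of the heart muscle and smooth muscle lists in each library; the connecting lines only guide the eye between libraries. Ryr2 and Atp2a2 peak with the heart muscle sum in WT 1 and KO 2, while Cacna1c does not.

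Both genes made up most of the transcript of their families. Ryr2 made up 72.7 to 96.6% of the summed FPKM of the 3 ryanodine receptor genes, and the differences between groups stayed within the spread (exact permutation p = 0.7). Atp2a2 made up 97.9%, 97.4% and 92.2% of the SERCA pump FPKM in WT and 89.5%, 82.4% and 95.1% in KO (difference -6.77 percentage points, exact permutation p = 0.2, adjusted p = 0.667). The remainder was mostly Atp2a3, the SERCA gene of endothelial and blood cells, which was at 2.11, 4.73 and 6.90 FPKM in WT and at 9.02, 17.6 and 8.03 in KO. Its log2 fold change was 1.38 ± 0.53 (SE, limma unadjusted p = 0.033, adjusted p = 0.588), and its groups did not overlap. Endothelial transcripts summed over 12 genes were 384.9 to 565.5 FPKM in WT and 472.6 to 695.9 in KO, with 7 of 12 genes above 0. Erythroid transcripts differed more: the 12 genes listed, 10 of them in the table, summed to 3873.4, 7586.7 and 4353.8 FPKM in WT and to 12670.9, 24387.6 and 4301.5 in KO, with 8 of 8 tested genes above 0 and a median log2 fold change of 1.21 (lowest limma adjusted p = 0.539). KO 1 was highest in the erythroid sum, in the endothelial sum and in Atp2a3. The part of these cell types in the Atp2a3 values was not tested.

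The rest of the calcium pathway was read from 6 further lists with 85 genes, of which 84 were in the table and 62 were tested. After adjustment 0 of the 62 passed, with 3 higher and 2 lower at an unadjusted limma p under 0.05 (8.28% of all tested genes did so). Groups did not overlap for 7 genes higher and 4 lower in KO, near the 8.21% and 7.84% of all tested genes, and the lists had a median log2 fold change of 0.10. Of the pore subunits outside the 10 genes 2 were tested, Cacna1a and Cacna1d, with log2 fold changes of 0.11 and 0.05. Of the 6 auxiliary subunit genes tested, 4 were above 0. Cacna2d1, the α2δ subunit paired with L-type pores in muscle, was at 8.59, 7.52 and 8.21 FPKM in WT and at 19.7, 15.9 and 9.97 in KO (0.85 ± 0.32, limma adjusted p = 0.584). Cacng7, a γ subunit best known in brain, was at 15, 14.7 and 14.7 FPKM in WT and at 3.17, 1.68 and 11.5 in KO (-1.88 ± 0.64, limma adjusted p = 0.552). Both had groups that did not overlap, and KO 2 was the KO library nearest to WT in each.

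Store-operated and receptor-operated entry had 9 tested genes, 5 above 0 and 4 below, with a median of 0.27 and a lowest adjusted p of 0.624 (limma). The most abundant were Piezo1, a stretch-gated channel (mean 25.1 FPKM, log2 fold change 0.27 ± 0.29), and Stim2, the second STIM sensor (13.8 FPKM, -0.15 ± 0.27). Release and its regulators had 16 tested genes, 8 above 0 and 8 below (median -0.03). Among these were Calr, the calcium-binding chaperone calreticulin (mean 793.5 FPKM, log2 fold change -0.13 ± 0.21), and Fkbp1a, which binds ryanodine receptors (95.8 FPKM, 0.08 ± 0.14).

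Uptake and extrusion had 12 tested genes, 9 above 0 and 3 below, with a median of 0.25. The mitochondrial uniporter pore Mcu was at 9.04, 7.38 and 7.51 FPKM in WT and at 15.3, 11 and 11.7 in KO (0.65 ± 0.28, limma adjusted p = 0.600), without overlap. Micu2, a regulator of that pore, was at 31.4, 33.3 and 56.3 FPKM in WT and 27.6, 22.7 and 30.6 in KO (limma adjusted p = 0.624), also without overlap. The plasma membrane pump genes Atp2b1 (mean 38.7 FPKM) and Atp2b4 (34.7 FPKM) had log2 fold changes of 0.23 ± 0.24 and 0.17 ± 0.19.

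Calcium-calmodulin sensing and response had 17 tested genes, 8 above 0 and 9 below (median -0.02). Calm2, a calmodulin gene, was at 483.3, 439.0 and 619.5 FPKM in WT and at 364.5, 402.3 and 328.4 in KO (-0.48 ± 0.20, limma adjusted p = 0.591). Calm3, which encodes the same protein, had a mean of 263.5 FPKM and a log2 fold change of -0.04 ± 0.24. Cald1, which encodes caldesmon and is also on the smooth muscle list, was at 252.1, 241.6 and 321.4 FPKM in WT and 241.1, 199.1 and 169.3 in KO (limma adjusted p = 0.616). Ppp3ca, a calcineurin catalytic subunit, was at 34.5, 25.8 and 22.3 FPKM in WT and at 37.9, 36.2 and 39.4 in KO (limma adjusted p = 0.601). Camk2b, a calmodulin-dependent kinase gene with a mean of 1.25 FPKM, did not overlap between the groups and was higher in KO.

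**Figure D5:**
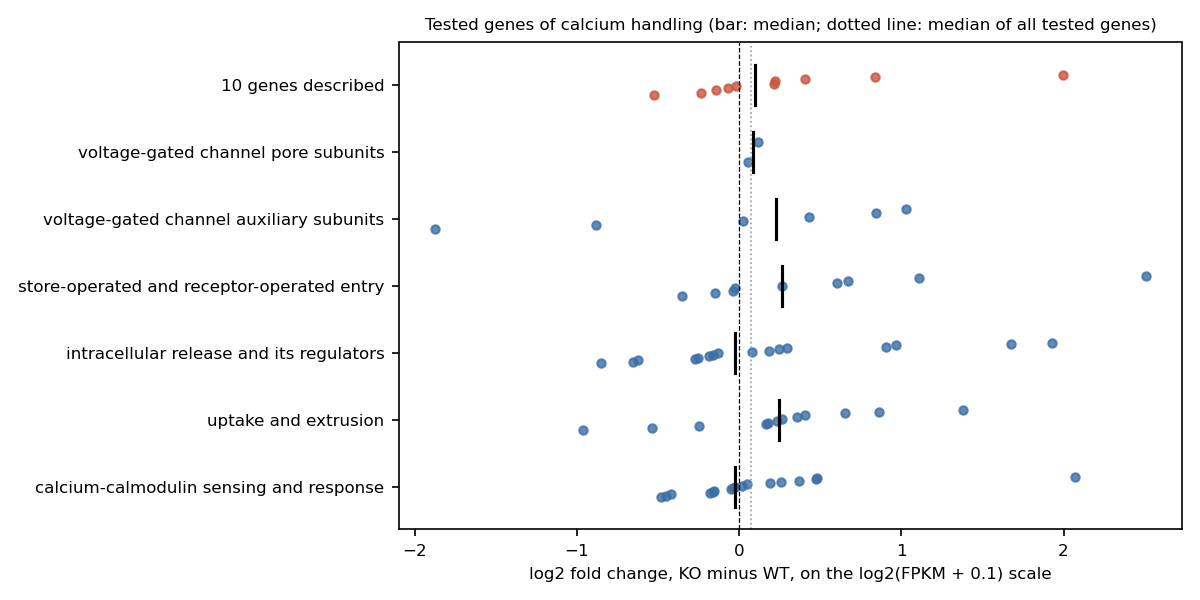
Log2 fold change, KO minus WT, on the log2(FPKM + 0.1) scale (horizontal axis) of the 10 genes (red) and of the tested genes of 6 other calcium lists (blue); bars are medians, the dashed line is 0 and the dotted line the median of all tested genes. The medians lie between -0.03 and 0.27, close to 0 relative to the spread of single genes, except in the pore subunit list, which has 2 tested genes.

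Other genes whose profile over the 6 libraries came closest to each of the 10 were found by the mean absolute difference of centred log2 values among 9114 genes with a mean of at least 5 FPKM. Ryr2 was closest to Got2 (0.253), the gene of a mitochondrial aminotransferase, which was highest in WT 1 and KO 2 too. Atp2a2 was closest to Gm14325 (0.097) and Gps2 (0.102). Cacna1c was matched most tightly, by Btg1 (0.028) and Tanc2 (0.064). For Cacnb2 the nearest were Llph (0.057) and Ash2l (0.058), for Cacna1g Snapin (0.072), and for Cacna1h Eif3e (0.079) and Dnaja3 (0.102). Stim1 was nearest to Ppil4 (0.044) and Zfp219 (0.045), Itpr1 to Kpna4 (0.046) and Pdzd8 (0.05), and Itpr2 to Fam175b (0.036) and D430019H16Rik (0.058). Orai1 had the loosest matches, Tlcd1 (0.264) and Fam171a2 (0.282), which were also at or near 0 in WT 2. These distances describe 6 libraries and carry no test.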

How the data were processed

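RNA from ductus arteriosus was sequenced in 6 libraries, 3 WT and 3 KO, grouped by their labels. The authors trimmed the reads for quality, aligned them to mm10 with TopHat2 and estimated gene levels with Cufflinks, and deposited FPKM for each gene and library. Versions, annotation and strandedness are not given in the sources used here. FPKM hides the number of reads, so total depth is unknown and no counting interval is given. The most common ratio of WT 1 to each library, among genes of very low level, put relative depth between 0.928 and 1.19 of WT 1. This assumes equal fragment numbers for such genes in both libraries, and the WT 2 value, 0.928, rests on 102 genes.

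Genes averaging 1 FPKM or more over the libraries were tested on log2(FPKM + 0.1) with limma 3.58.1 in R 4.3.3 (empirical Bayes with a trend of variance on level, Benjamini-Hochberg adjustment over 12955 genes, threshold 0.05). The pseudocount shrinks the fold changes of low genes. Scripts were tested on simulated data. Single values and family shares used exact permutation tests in scipy 1.17.1. Alternatives were other pseudocounts, filters and scalings, no moderation, a replicate block and leaving out libraries.

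The 10 genes and all gene lists were chosen with earlier results of these data known. Genes named from the lists were those with an unadjusted p under 0.05, at most 3 others of highest mean per list, and those whose groups do not overlap or that describe the heart muscle libraries, the last chosen after their values were seen, and a few genes that these rules name are not reported here. Gene positions are from GENCODE vM21 on GRCm38, the assembly of mm10, and promoters are from RefSeq.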

Additional observations from a re-analysis of the deposited data

How the results depend on the processing

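Over 16 alternatives, 0 of the 10 genes passed the adjusted threshold in any, and 145 of 158 log2 fold changes kept their sign. The filters, the trend, moderation and the replicate block leave a fold change as it is, so those settings could not reverse a sign. Apart from leaving out 1 library, reversals were Stim1 (0.0097) and Atp2a2 (0.017) with quantile normalization and Cacna1g (0.23) without WT 1 and KO 2. Leaving out 1 library at a time gave -0.18 to 0.77 for Ryr2, -0.46 to 0.18 for Atp2a2, -0.26 to 0.20 for Cacna1g and -0.21 to 0.22 for Stim1, and -0.084 to 0.23 for the median of the 10 genes. Of 80 family share differences 7 reversed: without WT 1 and KO 2 the difference was 4.08 points for Cacna1g and 2.83 for Itpr1, and leaving out 1 library gave -4.11 to 5.01 for Cacna1g, -4.79 to 6.66 for Stim1, -6.56 to 2.54 for Itpr1 and -0.534 to 8.89 for Ryr2. The number of genes without overlap was 0 with a mean of at least 5 FPKM, which drops Cacna1h and Orai1, 2 after scaling to a common median, 3 without WT 1 and KO 2, and 1 to 5 with 1 library left out. Of all tested genes, 38% did not overlap without WT 1 and KO 2, and 26.7% without KO 0, the setting that gave 5. Such shares are not given for the other alternatives, so their counts are not read as a result about the 10 genes. Over all genes, 2 passed without the trend, 2 without moderation, 3 without WT 1 and KO 2 and 1 to 3 with 1 library left out. The cause of these changes was not tested beyond the loss of libraries or genes. Library numbers were not treated as pairs. Same-numbered libraries correlated in their deviations from the group means at 0.122, -0.076 and -0.009, so not every library correlated best with its own number. The highest correlation, 0.144, joined WT 1 and KO 2, the libraries high in heart muscle transcript. This check cannot decide whether libraries were paired, because such shared tissue can outweigh any pairing. With a replicate block 1 gene passed, 0 of the 10 genes passed, 1 did not overlap and their median was 0.10. Orai1 and Cacna1h, at a few FPKM with unknown read numbers, had the largest standard errors in the main fit, 1.45 and 0.604. Ryr2 was close at 0.585. Without moderation the standard error was 0.727 for Ryr2 and 0.329 for Cacna1h.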
